A study of Mus musculus with 30 samples.

Results

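The clustered replication-dependent histone genes are the members described here: every entry of the deposited lung and spleen tables whose symbol starts with Hist1h, Hist2h, Hist3h or Hist4h. There were 61 such entries among 19470 for lung and 65 among 18845 for spleen; they carried 63 distinct symbols, of which 59 were in both tables. By histone type the lung members were 5 H1, 13 H2A, 18 H2B, 12 H3 and 13 H4 entries, and the spleen members 6, 15, 19, 12 and 13. Hist1h2ao and Hist1h2bq had 2 entries each, which were kept apart. The symbol pattern uses no measured value, but the gene set was proposed with the fold changes of these tables in view, so all counts and medians over members below are descriptions, and nothing is read from setting them beside the values of all genes.

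Lungs and spleens came from 8 week old mice of the C57BL/6 strain with 3 genotypes: wild type, lincRNA-Cox2 knockout and lincRNA-Cox2 Mutant, which the labels keep apart from the knockout. The lincRNA-Cox2 gene, transcribed into a noncoding RNA, lies next to Ptgs2, the gene for the prostaglandin synthase Cox2, and responds to bacterial products in immune cells. In each tissue and genotype 3 libraries came from mice given LPS, the bacterial cell wall lipopolysaccharide, into the peritoneum at 20 mg/kg for 6 h, and 2 from mice given PBS, the saline control, which made 12 groups and 30 libraries. How the alleles were made is not given in the sources used here, nor whether any animals were pooled. The deposited tables hold the authors' group means of normalised counts and their pairwise fold changes, not values per library, so no spread between animals can be given for any mean.

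Replication-dependent histone genes supply the histones that package newly made DNA, and their mRNAs rise when cells enter S phase and fall when replication ends. H2A, H2B, H3 and H4 form the core of the nucleosome, and H1 linker histones bind the DNA between nucleosomes. Unlike other mRNAs, most of these transcripts end just after a conserved stem-loop rather than in a poly(A) tail; the stem-loop is bound by the protein Slbp, and the U7 snRNP, of which Lsm11 is a subunit, directs the cut. Some of the same genes also make polyadenylated mRNAs, mostly in cells that have left the cell cycle.

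In the GENCODE M21 annotation (GRCm38/mm10) 50 of the 63 members lay on chromosome 13 within 2.22 Mb, 9 on chromosome 3, 3 on chromosome 11 and 1 on chromosome 6. Of these, 62 were annotated as protein-coding and Hist3h2bb-ps as a processed pseudogene, and 59 had a single exon. The stem-loop was searched for as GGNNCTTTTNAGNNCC on the transcript strand, a pattern fixed before the search. Its 2 arms of 6 bases must pair, around a loop of 4 bases. This stem-loop was in an annotated transcript of 41 members, and in 50 of all 55450 genes (0.0902%). The sites below, in the 3′ untranslated regions, show the loop variants and the members the results turn on; capitals mark the stem-loop of 16 bases.
Hist1h1e (chr13:23621776-23621803, minus strand): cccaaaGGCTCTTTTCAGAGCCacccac
Hist1h1d (chr13:23555781-23555808, plus strand): tcaaacGGCTCTTTTCAGAGCCacccac
Hist1h3f (chr13:23544926-23544953, plus strand): caaaacGGCTCTTTTAAGAGCCacctcc
Hist2h2ac (chr3:96220412-96220439, minus strand): caaaaaGGCTCTTTTTAGAGCCaccaaa
Hist1h4d (chr13:23581944-23581971, plus strand): accaaaGGCCCTTTTCAGGGCCactacc
Hist3h2a (chr11:58955166-58955193, plus strand): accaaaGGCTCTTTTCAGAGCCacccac
The form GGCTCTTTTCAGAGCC was in 23 members, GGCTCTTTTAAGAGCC in 6, and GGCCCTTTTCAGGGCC, seen in H4 genes, in 7.

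Where the annotated transcripts end relative to this site differed between members. In 19 members the transcript ended within 100 bases of the stem-loop, in 22 it ran further, and in 22 no stem-loop was annotated, among them Hist1h2af, whose model (chr13:23533906-23534304, plus strand) covers 399 bases. A poly(A) signal, AATAAA or ATTAAA on the transcript strand, stood in the last 60 bases of 16 of the 63, among them Hist1h1c, Hist2h2be, Hist2h3c1 and Hist3h2a. Hist2h2be had a poly(A) signal and no stem-loop in its model of 2620 bases.

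The promoters of the 3 members called in lung are shown. These genes were chosen by that call, and whether they share regulation was not tested. The windows are the 250 bases before the RefSeq start (GRCm38.p6). Capitals mark TATAAA, the TATA box, and CCAAT, the site read by NF-Y, on either strand, and none of these matches overlaps another.
Hist1h2af (chr13:23533625-23533874, plus strand): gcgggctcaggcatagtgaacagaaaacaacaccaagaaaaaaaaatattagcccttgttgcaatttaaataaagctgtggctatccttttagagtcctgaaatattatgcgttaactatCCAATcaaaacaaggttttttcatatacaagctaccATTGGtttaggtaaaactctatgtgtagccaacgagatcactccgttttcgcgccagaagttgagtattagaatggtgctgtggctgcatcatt
Hist1h1e (chr13:23622559-23622808, minus strand): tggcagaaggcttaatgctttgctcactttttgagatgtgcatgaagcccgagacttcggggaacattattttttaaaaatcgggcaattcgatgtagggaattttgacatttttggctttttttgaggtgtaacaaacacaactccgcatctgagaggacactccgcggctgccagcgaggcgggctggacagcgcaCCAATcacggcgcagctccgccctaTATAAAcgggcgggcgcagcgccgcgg
Hist1h1d (chr13:23554782-23555031, plus strand): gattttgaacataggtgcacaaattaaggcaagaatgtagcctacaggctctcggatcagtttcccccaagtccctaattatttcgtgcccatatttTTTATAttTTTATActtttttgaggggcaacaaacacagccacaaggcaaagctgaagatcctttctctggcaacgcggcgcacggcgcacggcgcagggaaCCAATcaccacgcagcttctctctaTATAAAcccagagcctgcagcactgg
The RefSeq start of Hist1h1d lies inside the longer GENCODE model. In the H1 promoters CCAAT and TATAAA stood in the same order close to the start, and the Hist1h2af window held CCAAT on both strands and no TATAAA. Of the 63 members 57 matched a RefSeq promoter: CCAAT was in 46 of these against 33.8% of all 32851 promoters of this length, and TATAAA in 28 against 12.4%. The octamer ATTTGCAT was in 13 of the 57, namely 6 of 14 H2A and 7 of 15 H2B promoters, and in 1.60% of all. By type, CCAAT was in all 6 H1, 14 H2A and 15 H2B promoters, in 8 of 10 H3 and in 3 of 12 H4 promoters. In 11 places 2 members stood head to head with starts 173 to 660 bases apart, and 10 of these pairs joined an H2A with an H2B gene.

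The low values of the group means let the reads per library be estimated for 11 of the 12 groups: 5.20 M to 17.3 M per lung library and 2.38 M to 8.95 M per spleen library (M, mega). In these groups 3 reads in the shallowest library correspond to a group mean of 0.843 to 2.33, which covers counting error only. The authors' group means of lincRNA-Cox2 itself in lung were 34.8 in wild type PBS and 30.2 in wild type LPS, and it was listed at 0 in the 4 lung groups of the other genotypes. In spleen it was 2.13 and 3.53 in wild type, 0.322 in knockout LPS and listed at 0 in the other Mutant and knockout groups. Sex was not balanced over the groups: the mean of Xist, which marks female cells, was 14.5 in wild type LPS lung, 4510.0 in Mutant LPS and 23.2 in knockout LPS, and 1910.0 to 3660.0 in the PBS groups. Sex and genotype therefore cannot be told apart where a Mutant LPS group is compared with another LPS group, and the animals of the knockout and wild type LPS groups were alike in these levels. The same limit holds for the LPS to PBS ratios of all 3 genotypes, since the higher of the 2 entries of the Y-linked Ddx3y stood at 317 in Mutant PBS lung and at 4.73 in Mutant LPS lung, and at 227 and 14.0 in spleen. Tissue markers followed the labels, with Sftpc, a surfactant protein gene, at 27000.0 to 41800.0 in lung and 160.0 to 558 in spleen.

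The level of the members differed between tissues in how many could be measured well. In lung the median member had a group mean of 2.61 in wild type PBS, 2.62 in Mutant PBS, 1.37 in knockout PBS, 2.97 in wild type LPS and 2.42 in Mutant LPS, and 9.70 in knockout LPS. Between 13 and 25 of the 61 lung members were at or under the mean that 3 reads allow in the first 5 of these groups, against 4 in knockout LPS. In spleen the median member stood at 24.0, 90.1 and 39.1 in wild type, Mutant and knockout PBS and at 57.7, 97.1 and 27.5 with LPS, with 52 to 61 of 65 members at a mean of at least 10. The 2 tables were normalised separately, so levels are not compared between the tissues. Since these are bulk tissues, fewer cells making histone mRNA and less histone mRNA per cell cannot be told apart.

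**Figure D1:**
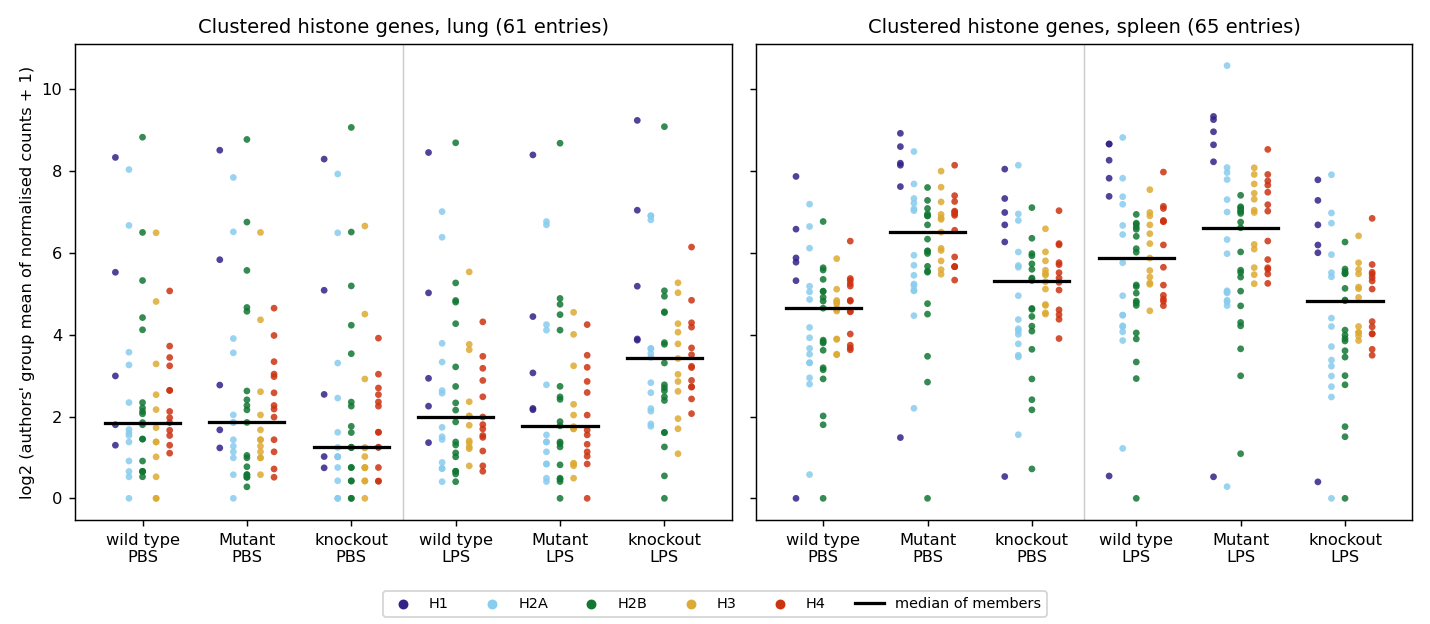
Authors' group mean of normalised counts for each clustered histone entry, as log2 of the mean plus 1 (y axis), by genotype and treatment (x axis), in lung (61 entries, left) and spleen (65 entries, right). Points are coloured by histone type and black bars are medians over members; the lung median is highest in knockout LPS (9.70 before the log) and the spleen median in Mutant LPS (97.1).

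In lung the knockout LPS group stood above the rest. It had the highest of the 6 group means for 49 of 61 members, against 21.0% of all lung genes, and the knockout PBS group the lowest for 29, against 16.3%. The summed normalised count over the 61 entries was 1649 in wild type PBS, 1659 in Mutant PBS and 1597 in knockout PBS, and with LPS 1349.7 in wild type, 1280.4 in Mutant and 2278 in knockout. With LPS the knockout sum was 1.69 times that of wild type and 1.78 times that of Mutant. For knockout over wild type under LPS the authors' deposited table gave a median log2 fold change of 0.95, with 53 of 61 members above 0, where 50.2% of all genes were. Over the 16 members with an overall mean of at least 10 the median was 0.44, from the authors' deposited table. The authors called 3 members at an adjusted p under 0.05, all higher in the knockout, among 27 with an adjusted p (0.441% of all genes tested were called). These adjusted p-values are the authors' own, from 3 libraries against 3.

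Hist1h2af, a core H2A gene, had group means in lung of 10.9 in wild type, 10.8 in Mutant and 8.90 in knockout with PBS, and of 12.8, 18.0 and 119 with LPS in the same order of genotypes. Only the knockout LPS group was high, and the other 5 were close together. The authors' deposited table gave a rise in knockout over wild type LPS of 2.91 on the log2 scale (adjusted p 4.43e-06). Against Mutant LPS the authors' deposited table gave 2.51 (adjusted p 2.60e-04). These comparisons share the knockout LPS libraries.

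All 5 H1 linker histone genes had their highest lung mean in knockout LPS, and the authors' deposited table gave folds over wild type LPS from 0.76 to 2.22. Hist1h1e had means of 45.1, 56.1 and 33.0 with PBS and of 31.5, 20.8 and 131 with LPS, in the order wild type, Mutant, knockout. The knockout was apart from both other LPS groups, and per the authors' deposited table it rose by 1.85 over wild type (adjusted p 0.0428) and by 2.40 over Mutant (adjusted p 0.00192). Hist1h1d had 6.96, 5.82 and 4.82 with PBS and 6.65, 7.38 and 35.4 with LPS. Here too 1 group was high: per the authors' deposited table it rose over wild type LPS by 2.09 (adjusted p 0.0452), while the value against Mutant LPS was 2.01 (adjusted p 0.0836). Hist1h1c, which carried most H1 counts in lung, had 322, 364 and 313 with PBS and 350.0, 336 and 604 with LPS. Per the authors' deposited table its fold over wild type LPS was 0.76 (adjusted p 0.19). Hist1h1a and Hist1h1b stood at 13.6 and 13.9 in knockout LPS and at 0.677 to 3.77 in the other groups, and no adjusted p is given for them against wild type.

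The core histone types followed to unequal degrees. Their median log2 fold changes of knockout over wild type under LPS were, from the authors' deposited table, 1.03 for H2A, 0.36 for H2B, 0.82 for H3 and 1.33 for H4, against 1.85 for H1. Summed H4 counts in lung were 89.2, 81.4 and 47.7 with PBS and 62.0, 59.5 and 197 with LPS, so that knockout LPS had 3.18 times the wild type LPS sum. Hist1h4d had 32.6, 24.1 and 14.1 with PBS and 18.9, 18.0 and 69.7 with LPS, and Hist1h4h 12.2, 14.8 and 7.20 with PBS and 8.06, 10.3 and 27.7 with LPS. For these H4 genes the knockout was lowest of the 3 genotypes with PBS and highest with LPS. The authors' deposited table listed folds over wild type LPS of 1.65 for Hist1h4d and 1.58 for Hist1h4h, with adjusted p-values of 0.19 and 0.12. The H4 gene Hist1h4i, with 5.23, 9.14 and 4.12 with PBS and 10.1, 8.21 and 10.4 with LPS, was also lowest in knockout PBS, but its knockout LPS mean was close to that of wild type LPS.

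H2B counts in lung were mostly from Hist1h2bc, a spliced H2B gene with 2 exons and no annotated stem-loop, which made 66.0% to 77.6% of the H2B sum. Its means were 454, 437 and 536 with PBS and 413, 410.0 and 543 with LPS, so the knockout was highest under either treatment and the range over the 6 groups was 410.0 to 543. Counts are not per length, so such a share does not rank genes by abundance. Without Hist1h2bc the H2B sum was 173 in knockout PBS and 173 in knockout LPS. This sum includes Hist2h2be, at 90.2 in knockout PBS and 22.3 in knockout LPS. Equal sums therefore do not show that the other H2B entries stayed level.

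Between Mutant and wild type lungs no member was called under LPS. Per the authors' deposited table, Mutant over wild type had a median of -0.14 with 23 of 61 members above 0 (all genes 52.4%), and 0 of 44 were called (all genes 0.0715%). Knockout over Mutant LPS had, per the authors' deposited table, a median of 1.17 with 58 of 61 above 0 (all genes 49.7%; 0.58 over the 16 with an overall mean of at least 10), and 2 of 31 were called, Hist1h2af and Hist1h1e (all genes 0.243%). With PBS no member was called in any of the 3 comparisons of the authors' deposited table, where 0.00524% of genes were called for Mutant over wild type, 0.0421% for knockout over wild type and 0.0523% for knockout over Mutant. The PBS medians from the authors' deposited table were -0.09 for Mutant over wild type with 24 of 61 above 0 (all genes 49.0%), -0.30 for knockout over wild type with 13 of 59 (all genes 50.8%), and -0.30 for knockout over Mutant with 15 of 61 (all genes 51.4%). So the knockout leaned lower with PBS and higher with LPS. The lowest adjusted p of a member in these PBS comparisons was 1.00 in the authors' deposited table.

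**Figure D2:**
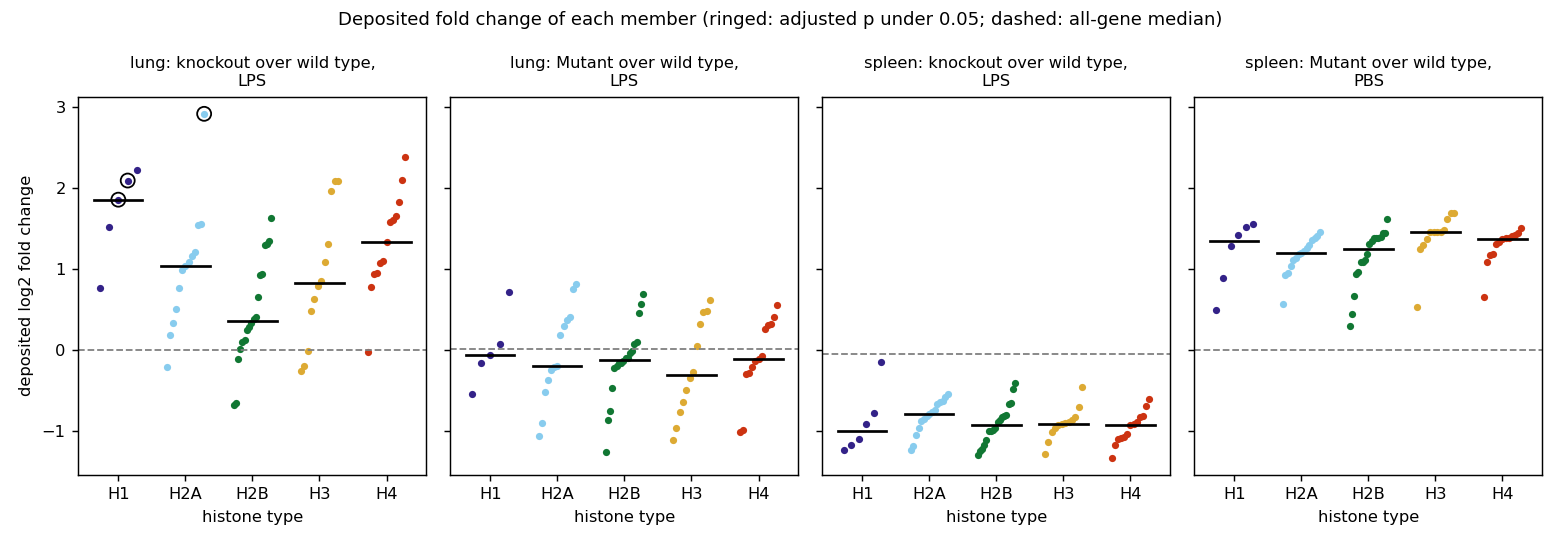
Deposited log2 fold change of each member (y axis) by histone type (x axis) for 4 comparisons; black bars are medians per type, the dashed line is the median of all genes and rings mark members with an adjusted p under 0.05. In lung knockout over wild type LPS the 3 ringed points are Hist1h2af, Hist1h1d and Hist1h1e, and in spleen the members lie below 0 for knockout over wild type LPS and above 0 for Mutant over wild type PBS.

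The response to LPS in lung, taken as the log2 ratio of the LPS to the PBS mean with a pseudocount of 1, is described without a test because the deposited tables compare genotypes only. Over all 61 members its median was -0.07 for wild type, -0.09 for Mutant and 1.59 for knockout. The LPS mean was the higher for 26, 27 and 55 members, against 47.4%, 47.8% and 48.9% of all genes. Where the LPS or the PBS mean reached 10, 19 of 29 members in knockout were at least 2-fold higher, against 16.9% of genes, and 0 of 16 in wild type (13.9%) and 0 of 15 in Mutant (15.5%). The medians over these members were -0.40 for wild type, -0.40 for Mutant and 1.49 for knockout. In knockout 17 of those 29 passed only through the LPS group, so the count and the median there follow in part from the filter. Among the 12 members with a mean of at least 10 in knockout PBS the median was 0.47.

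A few members fell outside this pattern. In lung 5 of 61 members had a lower mean with LPS in all 3 genotypes, against 37.5% of all genes: Hist3h2a, Hist1h2be, Hist2h2be, Hist3h2ba and Hist2h3c1, named after their values were seen. Hist2h2be, an H2B gene, went from 89.6 to 37.5 in wild type, from 107 to 21.5 in Mutant and from 90.2 to 22.3 in knockout, and had the smallest log2 ratio of knockout over wild type LPS, -0.72, among members with a mean of at least 10. Hist2h3c1, an H3 gene, went from 89.1 to 45.4, from 89.6 to 22.4 and from 100 to 37.6 in the same order. Hist3h2a, an H2A gene, went from 262 to 128, from 229 to 108 and from 243 to 111. These 3 genes were lower with LPS whatever the genotype. For Hist1h2be the knockout went only from 35.6 to 32.7, and Hist3h2ba was at 3.48 to 4.11 with PBS; the annotated transcript of each of the 5 ends in a poly(A) signal. Hist3h2a and Hist3h2ba lie together on chromosome 11, and Hist2h2be and Hist2h3c1 in the chromosome 3 cluster. Hist2h2ac of the same chromosome 3 cluster, which stands head to head with Hist2h2be at 239 bases, had 4.07, 3.11 and 1.03 with PBS and 1.71, 0.79 and 4.99 with LPS.

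The second-highest H2A and H3 genes of lung lay between these patterns. Hist2h2aa2 had 101, 90.5 and 89.0 with PBS and 82.5, 102 and 119 with LPS. Hist2h3c2 had 27.1, 19.6 and 21.7 with PBS and 11.4, 15.1 and 31.6 with LPS, lower with LPS in wild type and higher in knockout. The authors' deposited table listed its fold in knockout over wild type LPS as 1.31 (adjusted p 0.22).

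In spleen the order of the groups was another one. The summed normalised counts over 65 entries were 2110.3 in wild type PBS, 7277 in Mutant PBS and 3360.5 in knockout PBS, and with LPS 5898 in wild type, 10033 in Mutant and 2619 in knockout. The Mutant groups were highest and the knockout LPS group, which was the high one in lung, was second lowest. Each of the 65 members had its highest mean in a Mutant group, 39 with LPS and 26 with PBS, against 17.0% and 17.5% of all genes. The lowest mean was in wild type PBS for 46 members and in knockout LPS for 19, against 17.7% and 21.5% of all genes. Among the histone types, the sums of H1, H2A, H3 and H4 kept the order of the total, and the H2B sum was lowest in knockout LPS at 444 and highest in Mutant PBS at 1424.

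The deposited folds in spleen leaned the same way for nearly all members. Per the authors' deposited table, Mutant over wild type PBS had a median of 1.32 with 64 of 64 above 0 (all genes 50.1%), and knockout over wild type PBS one of 0.44 with 64 of 65 above 0 (all genes 49.0%). Knockout over Mutant PBS had, per the authors' deposited table, a median of -0.88 with 1 of 65 above 0 (all genes 48.3%). With PBS the order was thus Mutant, knockout, wild type. With LPS it was Mutant, wild type, knockout: the authors' deposited table gave medians of 0.46 for Mutant over wild type with 62 of 65 above 0 (all genes 47.5%), -0.90 for knockout over wild type with 0 of 64 (all genes 45.3%), and -1.34 for knockout over Mutant with 0 of 65 (all genes 47.3%). These comparisons share libraries, since each group enters 2 of them.

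Few of these folds passed the authors' test. Hist1h2af in knockout over Mutant LPS was the member called in spleen, among 55 with an adjusted p in a comparison where 0.177% of genes were called. Per the authors' deposited table it fell by 2.21 (adjusted p 0.0379), and 4 immature neutrophil markers were called lower in the same comparison, whose part in the result was not tested. No member was called in the other 5 comparisons, where the lowest adjusted p of a member was 0.588, for knockout over wild type LPS, per the authors' deposited table. The share of all genes called in them was 0.00545% for Mutant over wild type LPS, 0.0241% for knockout over wild type LPS, 0% for Mutant over wild type PBS, 0.160% for knockout over wild type PBS and 0% for knockout over Mutant PBS. For knockout over wild type PBS only 3 of the 65 members had an adjusted p in the authors' deposited table.

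Hist1h2af in spleen had means of 145, 356 and 282 with PBS and of 452, 1529.9 and 239.8 with LPS, in the order wild type, Mutant, knockout. The Mutant LPS group stood apart and held 53.3% of its H2A sum in this gene, against 24.6% to 34.8% in the other 5 groups. The H1 genes spread less unevenly. Hist1h1e had 94.8, 387 and 160.0 with PBS and 404, 612 and 155 with LPS, Hist1h1d 57.8, 292 and 126 and then 307, 498 and 102, and Hist1h1c 233, 485 and 264 and then 405, 646 and 220.0. Hist1h1a, with 53.7, 282 and 102 with PBS and 226, 399 and 63.2 with LPS, had the smallest log2 ratio of knockout over wild type LPS, -1.82, among members with a mean of at least 10.

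The other well-measured core histone genes of spleen were also highest in a Mutant group. Hist1h4d had 77.2, 282 and 130 with PBS and 251, 369 and 114 with LPS, and Hist1h4h 39.2, 168 and 72.4 and then 140.0, 241 and 41.1. Of the H3 genes, Hist2h3c2 had 57.1, 255 and 95.4 and then 186, 270.0 and 84.5, and Hist1h3b 33.6, 194 and 64.2 and then 126, 241 and 43.9. The H2B gene Hist2h2bb had 46.9, 193 and 81.1 and then 105, 169 and 43.9, and the H2A gene Hist3h2a 99.2, 160.0 and 110.0 and then 226, 271 and 125. For each of these genes the Mutant was the highest genotype under either treatment. Hist1h2bc moved least, with 108, 155 and 137 with PBS and 103, 139 and 76.0 with LPS, and had the largest log2 ratio of knockout over wild type LPS, -0.43, among members with a mean of at least 10.

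The LPS to PBS ratio in spleen also depended on the genotype. Over all 65 members the median log2 ratio was 1.35 in wild type, 0.13 in Mutant and -0.47 in knockout, and the LPS mean was the higher for 62, 39 and 6 members, against 49.7%, 46.2% and 46.2% of all genes. Where the LPS or the PBS mean reached 10, 49 of 60 members in wild type were at least 2-fold higher with LPS, against 13.5% of genes, and 6 of 58 in knockout at least 2-fold lower, against 18.7%. In wild type 7 of those 60 passed only through the LPS group, and in knockout 6 of those 58 only through the PBS group. Both counts therefore follow in part from the filter. Among the 53 members with a mean of at least 10 in wild type PBS the median was 1.37. Hist1h1d had the largest ratio in wild type, 2.39, and Hist2h2be the smallest, -0.86. Hist2h2be was lower with LPS in all 3 genotypes of spleen as of lung, going from 48.8 to 26.5, from 62.4 to 17.6 and from 60 to 14.0. Hist1h2bc was the other of the 2 spleen members with this pattern, against 32.6% of all genes.

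These ratios depend on the scale. The summed means of all genes were 7.44 M to 7.80 M in the lung PBS groups and 10.0 M to 10.5 M with LPS, and 3.56 M to 3.70 M and 4.69 M to 5.02 M in spleen. As a share of these sums the LPS to PBS ratio of the member total in knockout lung was 1.07 rather than 1.43, and in Mutant spleen 1.02 rather than 1.38. The ratio of knockout to wild type LPS moved less, from 1.69 to 1.63 in lung and from 0.444 to 0.425 in spleen.

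When members were grouped by a poly(A) signal at the end of the annotated transcript, the lung values parted. For knockout over wild type LPS the authors' deposited table gave a median of 1.08 for the 45 lung entries with no poly(A) signal at the end, 42 of them above 0, and of 0.21 for the 16 with a signal, 11 of them above 0. Entries without the signal had median LPS to PBS ratios of -0.06 in wild type, 0.07 in Mutant and 1.95 in knockout, and those with it -0.28, -0.70 and 0.89. In spleen the parting was smaller: medians from the authors' deposited table were -0.91 without and -0.83 with the signal for knockout over wild type LPS, and 1.38 and 1.08 for Mutant over wild type PBS. By the stem-loop classes the lung medians of knockout over wild type LPS lay closer together, from the authors' deposited table. They were 1.12 for entries ending within 100 bases of the stem-loop, 0.78 for those running further and 0.89 for those with none. Above 0 were 19 of 20, 17 of 21 and 17 of 20 entries in the same order. Both groupings were made after the values were seen and have no test. Which 3′ end was present in these samples was not measured by the deposited values.

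**Figure D3:**
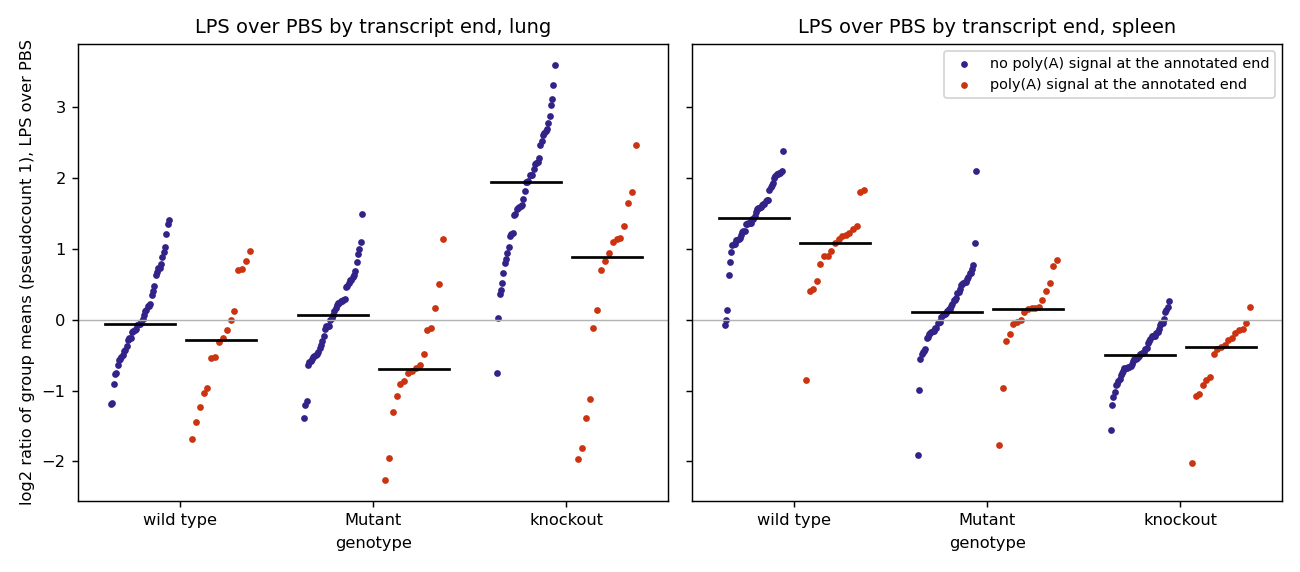
Log2 ratio of the LPS to the PBS group mean with a pseudocount of 1 (y axis) for each member, by genotype (x axis), in lung (left) and spleen (right); colours separate entries with and without a poly(A) signal in the last 60 bases of the annotated transcript, and black bars are medians. In knockout lung the medians are 1.95 without and 0.89 with the signal, and 5 of the 16 entries with the signal lie below 0.

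Replacement and variant histone genes, most of which can be transcribed outside S phase and make polyadenylated mRNAs, were measured beside the clustered ones. Per the authors' deposited table, none of these 11 was called in knockout over wild type LPS in lung, where their median was 0.26 and 10 were above 0. H3f3b, an H3.3 gene, had means in lung of 4050.0, 3830.0 and 3640.0 with PBS and 12600, 15700 and 15400 with LPS, higher with LPS in each genotype. H1f0, the linker histone of resting cells, had 991, 1139.6 and 990.0 with PBS and 713, 565 and 862 with LPS, and per the authors' deposited table rose in knockout over Mutant LPS by 0.60 (adjusted p 0.00512). The summed list in spleen stood at 6081, 5971 and 6032 with PBS and 8573, 10561 and 10357 with LPS, without the Mutant excess of the clustered genes under PBS.

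Among 16 genes for histone mRNA synthesis and processing the authors' deposited table called none in any comparison of either tissue. Slbp, the stem-loop binding protein, had lung means of 216, 237 and 226 with PBS and 360.0, 331 and 274 with LPS. Npat, the coactivator of histone transcription at the histone locus body, had 200, 230.0 and 234 and then 265, 265 and 237, and Lsm11 95.5, 108 and 107 and then 69.2, 56.2 and 52.2. None of these 3 was highest in knockout LPS, and the sum over the list, 5762 to 7401, was highest there. The median of the 16 genes for knockout over wild type LPS went the other way in lung. It was -0.13 with 6 above 0, and -0.18 with 6 above 0 in spleen, from the authors' deposited table. Of the 11 histone chaperones and importers none was called either, and from the authors' deposited table their median for knockout over wild type LPS was 0.16 in lung and -0.02 in spleen.

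Of 26 genes of S phase and proliferation the authors' deposited table called 0 in every spleen comparison; those named below with an adjusted p were called in lung. For these 26 genes the authors' deposited table gave a median of knockout over wild type LPS of 0.03 in lung, 15 of them above 0, and of -0.42 in spleen, 1 above 0. From the authors' deposited table, spleen Mutant over wild type had medians of 0.29 with LPS (25 above 0) and 0.18 with PBS (20 above). In spleen knockout over wild type PBS had 0.05 (18 above) and knockout over Mutant LPS -0.68 (0 above), per the authors' deposited table. Lung knockout over Mutant LPS had a median of 0.33 with 19 above 0, per the authors' deposited table. Their sum ordered the spleen groups as wild type PBS, knockout PBS, knockout LPS, Mutant PBS, wild type LPS and Mutant LPS, which is not the order of the members. The highest group was the same as for the summed members in each tissue, knockout LPS in lung and Mutant LPS in spleen. In lung, however, the list summed to 5468 in wild type LPS and 5669 in knockout LPS. That gap was smaller than the gap of Mki67 alone, so the lung match rests on this gene. Mki67, a marker of cycling cells, had lung means of 242, 187 and 231 with PBS and 673, 525 and 1232 with LPS; per the authors' deposited table it rose in knockout over Mutant LPS by 1.19 (adjusted p 0.0136). Of the helicase genes, Mcm6 went the other way: per the authors' deposited table it fell in knockout over wild type LPS by 1.11 (adjusted p 4.98e-04). In lung, 1 gene of this list was also called lower in knockout over Mutant LPS, per the authors' deposited table. With PBS, 1 was called lower in knockout over wild type and 1 in knockout over Mutant. Lower calls in the knockout were therefore not limited to LPS. Mki67 in spleen had 2340.0, 3710.0 and 2720.0 with PBS and 5330.0, 6830.0 and 3700.0 with LPS. It was highest in Mutant LPS, as were the summed members and 39 of the 65 single members. The part of S phase in the result was not tested.

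Among RNAs without a poly(A) tail for another reason, Rmrp and Rpph1 were highest in the same group as the summed members in each tissue. Rmrp, the RNA of RNase MRP, had lung means of 290.0, 227 and 75.4 with PBS and 165, 176 and 458 with LPS. Rpph1, the RNA of RNase P, had 467, 341 and 144 and then 242, 314 and 803. The knockout was lowest with PBS and highest with LPS, as for the summed members, but the PBS gap was unequal: knockout over wild type PBS was -1.94 for Rmrp and -1.70 for Rpph1 and -0.05 for the summed members on the log2 scale. The order of the other lung groups also differed from that of the summed members. In spleen Rmrp had 264, 623 and 409 with PBS and 546, 1090.0 and 298 with LPS, and Rpph1 408, 1210.0 and 884 and then 1870.0, 3400.0 and 821. Rmrp put the 6 spleen groups in the same order as the summed members, and Rpph1 differed from it by the places of Mutant PBS and wild type LPS. Per the authors' deposited table none of the 79 lung and 82 spleen entries of this list, most of them snoRNAs, was called in any comparison, and the medians of knockout over wild type LPS were 0.20 in lung and -0.11 in spleen. The other spleen medians with LPS did not lean as the members did, per the authors' deposited table. Mutant over wild type had -0.145 with 29 of 81 above 0, and knockout over Mutant 0.064 with 45 of 82. With PBS they leaned as the members did: 0.198 for Mutant over wild type, 0.151 for knockout over wild type and -0.15 for knockout over Mutant. The libraries were made with mRNA isolation kits, per the labels, and how much RNA without a tail each library kept is not given per library. The part of this in the result was not tested.

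**Figure D4:**
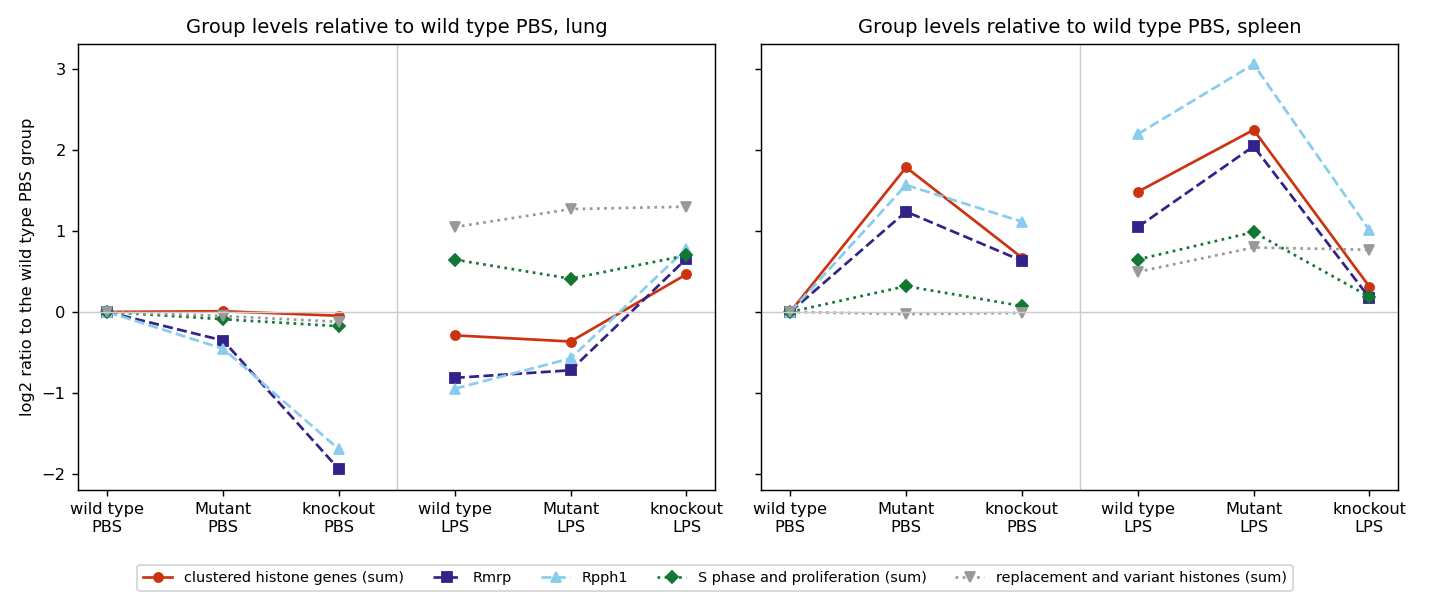
Log2 ratio of each group mean to the wild type PBS group (y axis) for the summed clustered histone genes, Rmrp, Rpph1, the summed S phase list and the summed replacement histones, by group (x axis), in lung (left) and spleen (right). In Mutant PBS spleen the clustered histone sum is 1.79, Rmrp 1.24 and Rpph1 1.57 above wild type PBS, while the replacement histones are at -0.03; in knockout LPS lung the clustered sum is at 0.47, Rmrp at 0.66 and Rpph1 at 0.78.

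Markers of other cells differed between the groups as well, given here as sums of group means in the order wild type, Mutant, knockout. In lung the erythroid markers summed to 49446, 39175 and 41923 with PBS and 51354, 57553 and 90380.2 with LPS, and 9 of 9 entries were above 0 in knockout over wild type LPS per the authors' deposited table. Hepatocyte markers summed to 569, 26.8 and 197 with PBS and 442, 857 and 4139 with LPS, with 7 of 7 above 0, and skeletal muscle markers to 71.3, 69.6 and 2598 and then 64.3, 56.6 and 609.6, with 5 of 5 above 0, per the authors' deposited table. B cell markers summed to 1065, 1530.2 and 1414 and then 604, 885 and 1277, with 8 of 8 above 0 and 1 called higher in knockout over wild type LPS, per the authors' deposited table. The knockout LPS lungs were highest of the LPS groups in these 4 lists. This also held for immature neutrophil markers, at 42113, 49651 and 53919 with LPS, and pancreatic acinar markers, at 41.8, 44.9 and 153. It held as well for lung tissue markers, at 108200.0, 124000.0 and 125300.0, and spleen tissue markers, at 289.9, 419 and 495. It did not for T cell markers, at 174, 256 and 234 with LPS, or plasma cell markers, at 6844, 6646 and 6796. In knockout over wild type LPS 1 plasma cell marker was called higher, per the authors' deposited table. Of the hepatocyte and skeletal muscle markers Ttr was at 0 in Mutant PBS and Myh4 in both Mutant groups. The immature neutrophil and spleen tissue lists each had 1 entry with a group at 0.

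In spleen the erythroid markers summed to 63122, 94118 and 51076 with PBS and 127842, 195826 and 102181 with LPS. Pancreatic acinar markers summed to 1006, 20330.0 and 2958 and then 16770.0, 25000.0 and 9950.0, and immature neutrophil markers to 4489, 3126 and 2358 and then 9206, 25292 and 8005. For knockout over Mutant LPS, the comparison of the Hist1h2af call, the authors' deposited table gave the neutrophil markers a median of -2.31 and called 4 of the 7 with an adjusted p lower. None of these spleen markers was at 0 in any group. The Mutant was the highest genotype under either treatment for the erythroid and acinar sums, and under LPS for the neutrophil sum. It was not for other lists with LPS: B cell markers stood at 7679, 4685 and 4326, T cell markers at 1246, 743 and 597, plasma cell markers at 2153, 2929.9 and 6683, and hepatocyte markers at 260.3, 3066 and 4263. The part of these markers in the result was not tested in either tissue.

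Reads of these genes could not be assigned with equal certainty. Of the 63 members 29 shared over 50% of their 50-base windows with transcripts of other genes, and 4 shared none. Hist1h2af shared 79.7% of its windows, most often with Hist1h2ad, and Hist1h1e, which overlaps Hist1h2be on the same strand, 32.0%. Hist1h1d shared 2.25%, Hist1h1c 8.54% and Hist1h4d 10.2%. From the authors' deposited table the median of knockout over wild type LPS was 0.79 among lung entries with at most 50% shared and 1.01 among the others, and -0.91 and -0.87 in spleen. For 17 members an annotated gene of the other strand overlaps, Gm44297 in the case of Hist1h2af, and whether reads were counted by strand is not given in the sources used here.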

How the data were processed

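Total RNA of lung and spleen was made into libraries with mRNA isolation kits, per the labels. Alignment to mm10 with STAR 2.5.3a, and the use of Bowtie2, SAMtools, bedtools and DESeq2, are named in the submitters' processing notes without settings; the counting program, annotation and strand setting are not given in the sources used here. The deposited values used are a signal, the authors' group means of counts divided by DESeq2 size factors (per the file headers), the authors' log2 fold changes of 1 genotype over another, mostly smaller in size than the ratios of the group means, and, as a score, the authors' adjusted p-values, with no per-library columns. Calls here are adjusted p-values under 0.05. On reading, 6 lung and 5 spleen lines with shifted cells were left out, and 1026 split spleen symbols were rejoined. Computed here with Python 3.11.15 and pandas 2.3.3 were sums, medians, LPS to PBS ratios (pseudocount 1, mean of at least 10 in either group), and sequence features from GENCODE M21 and RefSeq GRCm38.p6. Library depth was estimated from the steps of low group means, accepted where at least 98% of low values were explained (not so for Mutant LPS spleen); on simulated means of the 19470 lung entries the steps of 3 of 3 groups of 2 and 3 of 3 groups of 3 libraries were recovered. Values in every group are given for members with an adjusted p under 0.05, the 2 members of highest overall mean per type and tissue, and the members with the largest and smallest ratios. The members, lists and rule were chosen with earlier results of these data known. A fold, sum or share here has no replicate check, and libraries may share technical sources that the labels do not give.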

Additional observations from a re-analysis of the deposited data

How the results depend on the processing

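Across 135 alternative values, 117 stayed within 1.5 times or 0.1 of the reported value and 134 kept its sign; an adjusted p under 0.1, other pseudocounts, centring on all genes and leaving out members with shared sequence or a poly(A) signal moved none of theirs. With members of an overall mean of at least 10 only, the lung medians were -0.035 (Mutant over wild type LPS), 0.44 (knockout over wild type LPS), 0.58 (knockout over Mutant LPS) and 0.091 (Mutant over wild type PBS, another sign). With no filter the lung LPS to PBS medians were -0.07 in wild type and -0.092 in Mutant. As ratios of means, the spleen median of knockout over wild type PBS was 0.70. Without the member of highest mean, the lung log2 sums of knockout LPS over wild type LPS and over knockout PBS were 2.16 and 2.29 for H1, 1.31 and 1.47 for H2A, and 1.38 and 1.70 for H3. As a share of the sum over all genes, chosen after seeing the data as were the sequence-based ones, the log2 LPS to PBS ratio of the member sum was -0.65 in wild type, -0.88 in Mutant and 0.10 in knockout lung, and 0.024 in Mutant and -0.82 in knockout spleen. The cause was not tested. No paired analysis was possible because the tables hold group means and the labels pair no samples; leaving out replicates could not be run for the same reason. In lung 4 to 25 of the 61 members per group are at or under the mean that 3 reads allow.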
